A study of Mus musculus with 3 samples.

Results

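miRNA levels in the tibialis anterior (TA) muscle, the muscle at the front of the shin, were compared directly between day 3 and day 1 after injury with cardiotoxin (CTX), a snake venom protein that kills myofibers and leaves the muscle stem cells able to rebuild them. The comparison used 2 of the 3 miRNA-Seq libraries of the study, and all 1138 mature miRNAs listed for them were its members. Both libraries came from wild type C57BL/6 mice labelled as 10 weeks old, and the study's methods describe male mice injected in the TA muscle. The labels give the injection as 10 mM CTX in 30 mL, whereas the methods state micromolar and microliter units. Each library was a pool of 4 samples, which leaves no replicates on either day and no measure of how much mice differ. The third library, from uninjured muscle, was not used as a reference here. The day 1 library held 6421056 miRNA reads and the day 3 library 9795076, and at least 1 read was counted for 915 and 987 miRNAs. Both libraries were rich in the miRNAs that define skeletal muscle, with miR-1a-3p ranked 3 on each day.

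A mature miRNA is a short RNA cut from 1 arm of a hairpin precursor (the 5p or the 3p arm), and its seed, bases 2 to 8, pairs with the messenger RNAs it represses. After CTX the muscle is first cleared of dead myofibers by neutrophils and macrophages, while satellite cells, the muscle stem cells, leave quiescence, divide and begin to differentiate into new myofibers. Several miRNAs are known by the cells that make them, such as miR-206 in differentiating myoblasts, miR-223 in neutrophils and other myeloid cells, and miR-126a in endothelial cells. In whole muscle, fewer cells of a type and less miRNA per cell cannot be told apart.

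The sequences on which the results turned are printed from the RefSeq table of the mouse build GRCm38.p6, 5′ to 3′, with the seed in capitals. The first set rose from day 1 to day 3, and the 9 sequences have 9 different seeds.
miR-206-3p: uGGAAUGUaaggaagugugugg
miR-133b-5p: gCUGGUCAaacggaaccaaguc
miR-133b-3p: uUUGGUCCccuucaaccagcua
miR-31-5p: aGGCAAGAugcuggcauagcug
miR-183-5p: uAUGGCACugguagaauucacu
miR-744-5p: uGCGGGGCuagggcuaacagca
miR-675-5p: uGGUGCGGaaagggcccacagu
miR-483-5p: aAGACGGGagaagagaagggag
miR-21a-5p: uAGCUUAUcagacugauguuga
The miRNAs below stood out for a fall between the same days.
miR-6538: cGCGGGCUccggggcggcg
let-7i-3p: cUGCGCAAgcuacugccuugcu
miR-195a-5p: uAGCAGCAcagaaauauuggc
miR-223-3p: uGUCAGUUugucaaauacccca
miR-126a-3p: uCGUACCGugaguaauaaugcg
Seed families with more than 1 called member are shown for the miR-34 and miR-449 seed and for the miR-30 seed.
miR-34a-5p: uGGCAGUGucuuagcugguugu
miR-34b-5p: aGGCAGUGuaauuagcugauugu
miR-449a-5p: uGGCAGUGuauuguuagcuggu
miR-30a-5p: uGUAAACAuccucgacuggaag
miR-30c-5p: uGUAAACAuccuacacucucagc
miR-30e-5p: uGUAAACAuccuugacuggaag
Pairs with the same seed and unequal changes are shown for miR-351-5p with miR-125b-5p, and for miR-497a-5p, to be read beside miR-195a-5p.
miR-351-5p: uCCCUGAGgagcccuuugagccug
miR-125b-5p: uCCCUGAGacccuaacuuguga
miR-497a-5p: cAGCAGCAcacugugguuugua

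Each level is given as CPM, the reads of a miRNA per 1000000 miRNA reads of the same library. A miRNA was called higher or lower when its CPM differed by a fold of at least 2 and Fisher's exact test (two-sided, its reads against all other reads of the library) gave a Benjamini-Hochberg adjusted p of at most 0.001 over the 1104 miRNAs with a read in either library. Of these, 106 (9.60%) were called higher and 79 (7.16%) were called lower on day 3. Among the 339 miRNAs with at least 100 reads in either library, 87 (25.7%) were called higher and 52 (15.3%) lower. Scarce miRNAs are rarely called, so groups with many members at that level are to be read beside these shares too. Such calls compare 2 pooled libraries and not the conditions, and they have no replicate check. The 95% intervals given with the log2 fold changes (Wald) and with shares of reads (Wilson) cover counting error only. They rest on the read counts of 1 pooled library per day. PCR copies of 1 molecule are counted as separate reads, so the intervals may be too narrow even for counting error.

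Most miRNAs with at least 10 reads on each day changed by less than a fold of 2, while a limited set changed by large factors. That minimum leaves out miRNAs scarce on 1 day, such as miR-206-5p (2 and 148 reads). For the 476 miRNAs that reached 10 reads on each day, log2 fold changes had a median of -0.05 and quartiles of -0.67 and 0.71, and 308 (64.7%) lay within a fold of 2. Across these miRNAs the log10 CPM of the 2 days had a Pearson r of 0.92 and a Spearman rho of 0.89, given as a description because miRNAs of the same libraries are not independent. The miRNAs called higher held 3.68% of the reads on day 1 and 27.3% on day 3, and without miR-206-3p 3.20% and 9.29%. Those called lower held 34.9% and then 14.2%. The 919 that were not called held 61.4% and 58.5%. These shares describe groups defined by their change.

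**Figure D1:**
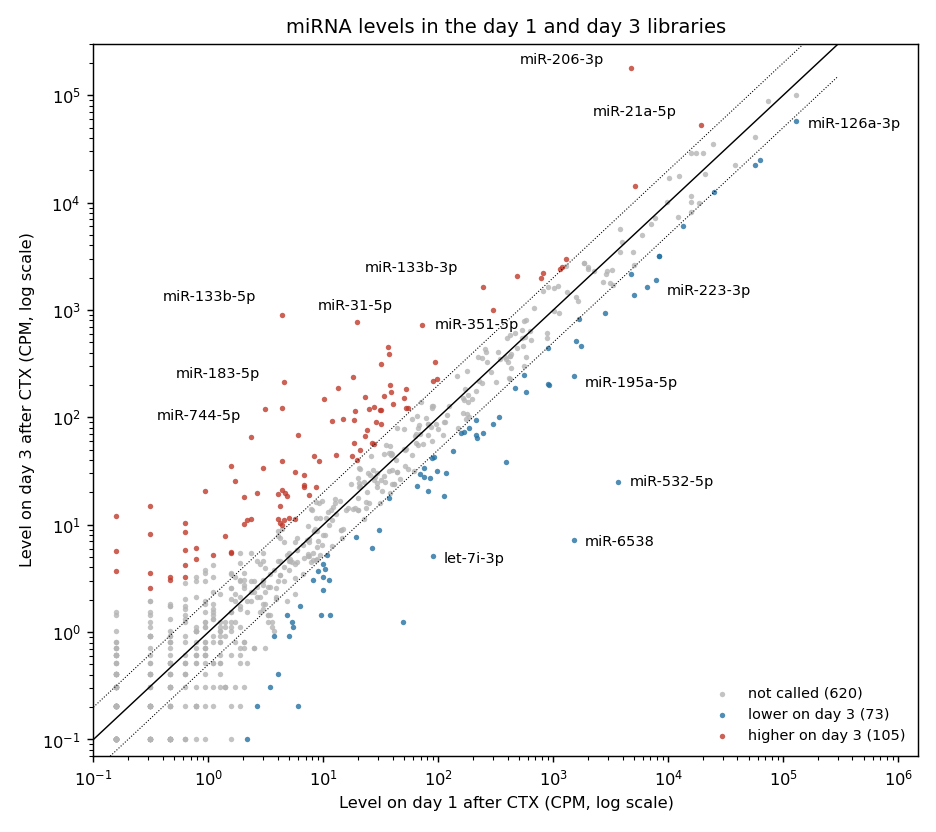
Level of each miRNA in CPM on day 1 (x axis) and day 3 (y axis), both log scales, for miRNAs with reads in both libraries. The solid line marks equal levels and the dotted lines a fold of 2. Red points were called higher and blue points lower on day 3. miR-206-3p lies far above the line at 180001 CPM on day 3 and 4781 CPM on day 1, whereas miR-6538 and miR-532-5p lie farthest below it.

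The share of the reads changed hands among few miRNAs. The summed gain in CPM was 319148, of which miR-206-3p alone made up 54.9%, miR-21a-5p 10.5% and miR-1a-3p 4.47%. On the other side, miR-126a-3p gave 22.1% of the summed loss, miR-143-3p 11.7% and miR-378a-3p 11.0%. The 10 most abundant miRNAs held 61.6% of the reads on day 1 and 64.1% on day 3, but only 5 of them were the same. Because CPM is a share, the rise of miR-206-3p by itself lowers the log2 share of every other miRNA by 0.28 (a shift of -0.28). With totals that leave out miR-206-3p, 132 miRNAs were called higher and 55 lower, so higher calls made up 70.6% of the calls in place of 57.3%. With the second deposited value, a whole number per miRNA called expression and scaled here to its own total, the calls were 120 higher and 55 lower (68.6% higher).

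**Figure D2:**
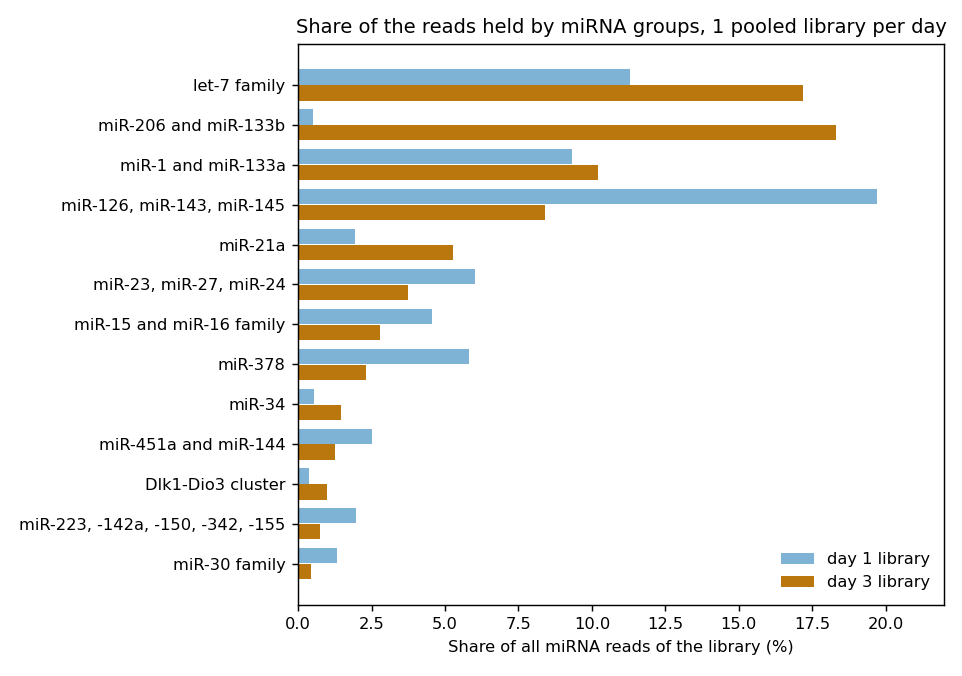
Share of all miRNA reads of a library held by groups of miRNAs, in percent, on day 1 (blue) and day 3 (orange), 1 pooled library per day and no error bars. miR-206 and miR-133b went from 0.503% to 18.3% of the reads, and miR-126, miR-143 and miR-145 from 19.7% to 8.41%.

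The miRNAs of regenerating muscle showed the main rise. miR-206 and miR-133b are muscle-specific miRNAs that the myogenic factors MyoD and myogenin switch on during differentiation. All 4 of their mature forms were called higher, against 9.60% of all miRNAs and 25.7% of those with at least 100 reads in either library. Their hairpins lie close together on the same strand, within exons of the lincRNA Gm28653 at chr1:20679010-20679082 and chr1:20682769-20682887 (GRCm38, GENCODE annotation). In the hairpins printed here the mature arms are in capitals, since both arms were counted.
Mir206: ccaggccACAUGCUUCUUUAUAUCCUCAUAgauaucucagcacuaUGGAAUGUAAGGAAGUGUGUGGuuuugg
Mir133b: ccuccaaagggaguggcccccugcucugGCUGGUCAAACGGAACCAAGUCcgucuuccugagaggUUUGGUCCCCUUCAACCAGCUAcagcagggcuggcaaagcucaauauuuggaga

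miR-206-3p had 30697 reads (4781 CPM) on day 1 and 1763128 reads (180001 CPM) on day 3, a 37.7-fold rise with a log2 fold change of 5.23 (5.22 to 5.25). It moved from rank 36 to rank 1. Its size depended on which deposited value was used, since the expression value of miR-206-3p was 26123 on day 1 and 168191 on day 3, which gave a 5.27-fold rise (2.40 on the log2 scale) once scaled to the totals. How the expression values were made is not given in the sources used here, and that of miR-206-3p lay much closer to its reads on day 1 than on day 3.

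The passenger strand of the same hairpin, miR-206-5p, went from 2 to 148 reads, a log2 fold change of 5.60 with a wide interval of 3.59 to 7.61. miR-133b-3p rose from 246.8 to 1644 CPM (1585 and 16099 reads), or 6.66-fold. The other arm, miR-133b-5p, rose from 28 to 8779 reads, a 205.5-fold change and the steepest rise among the called miRNAs with at least 500 reads. Together the 4 forms went from 5032 to 182556 CPM. miR-133b-3p is nearly identical in sequence to miR-133a-3p, so reads of this pair may have been shared between them in the counting.

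miR-1a and miR-133a are abundant miRNAs of mature myofibers, and none of the 7 members tested was called, against 9.60% called higher and 7.16% lower of all miRNAs, so that a count of 0 among 7 is near those shares. miR-1a-3p stood at 73841 CPM on day 1 and 88096 CPM on day 3 (log2 fold change 0.25), and miR-133a-3p at 12222 and 7340 CPM (-0.74). Their summed level was 93127 and 101803 CPM. From the expression values miR-1a-3p had a log2 fold change of -0.10, so its sign depended on the value used. miR-499-5p, which is encoded in the slow myosin gene Myh7b, was called lower, from 1179 to 786 reads (log2 fold change -1.19), but with totals without miR-206-3p its value was -0.91 and the call was lost. miR-486a-5p, from an intron of the ankyrin gene Ank1, shares its sequence and its reads with miR-486b-5p and had 422.8 and 369.8 CPM. Of the 4 miR-486 members tested, 1 was called lower and none higher, against 7.16% and 9.60% of all miRNAs. The called member was miR-486b-3p (422 to 226 reads, -1.51).

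miR-31 and miR-195a-5p changed in opposite directions. miR-31, known for holding back translation of Myf5 messenger RNA in quiescent satellite cells, rose on both arms. miR-31-5p went from 127 to 7503 reads (19.8 to 766.0 CPM, log2 fold change 5.28, 5.02 to 5.53) and miR-31-3p from 28 to 1184 reads (4.79, 4.25 to 5.33). The hairpin of miR-31 lies on the minus strand at chr4:88910557-88910662. In contrast, miR-195a-5p, of the miR-15 and miR-16 seed family that restrains the cell cycle, fell from 9697 to 2375 reads, a 6.23-fold drop (log2 fold change -2.64). Its cluster partner miR-497a-5p, with the same seed, had 1323 CPM on day 1 and 1473 CPM on day 3 (0.16), so the 2 miRNAs of this cluster did not change alike. Of 11 family members tested, 1 was called lower and 1 higher, miR-15b-3p (169 to 567 reads, 1.14), against 7.16% and 9.60% of all miRNAs. The abundant miR-16-5p (-0.76), miR-15a-5p (-0.46) and miR-15b-5p (-0.26) were not called.

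The cluster of miR-322, miR-503 and miR-351 on the X chromosome, active in proliferating and differentiating myoblasts, also moved in part. Of 13 members tested, 5 were called higher and none lower, against 9.60% and 7.16% of all miRNAs. miR-351-5p rose 9.95-fold, from 466 to 7070 reads, and miR-351-3p from 13 to 100 reads. miR-503-5p rose from 178 to 550 reads (log2 fold change 1.02). The most abundant member, miR-322-5p, stood at 5952 and 4968 CPM and was not called (-0.26), so the summed level of the cluster was 6571 and 6216 CPM. miR-17 to miR-92a, the proliferation cluster induced by Myc, and its X-linked paralog cluster had 17 members tested with 1 called, near the share of 9.60% over all miRNAs. This was miR-18a-5p, which rose from 620 to 2215 reads (1.23).

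miRNAs of the imprinted genes H19, Igf2 and Mest, which are high in fetal tissue, rose. H19 is a noncoding RNA that carries miR-675 in an exon, Igf2 encodes a fetal growth factor and carries miR-483 in an intron, and the Mest gene carries miR-335 in an intron. All 6 mature miRNAs of these 3 genes were called higher, against 9.60% of all miRNAs and 25.7% of those with at least 100 reads in either library. Their log2 fold changes ran from 2.24 to 4.81, and their summed level went from 116.2 to 1174 CPM (10.1-fold). Mest miRNAs were added to this group after their values were seen.
Mir675: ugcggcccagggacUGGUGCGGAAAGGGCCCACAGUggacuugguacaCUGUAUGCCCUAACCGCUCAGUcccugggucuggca
Mir483: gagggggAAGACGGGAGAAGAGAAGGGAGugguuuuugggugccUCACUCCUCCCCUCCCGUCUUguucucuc
In these hairpins the capitals mark the 2 arms. miR-675-3p went from 235 to 4429 reads (12.4-fold) and miR-675-5p from 15 to 641 reads (28.0-fold). miR-483-5p went from 65 to 1463 reads (14.8-fold), miR-483-3p from 10 to 344 reads, miR-335-3p from 205 to 3061 reads (9.79-fold) and miR-335-5p from 216 to 1558 reads (4.73-fold).

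The largest block of higher calls came from the Dlk1-Dio3 domain on chromosome 12, an imprinted region whose many miRNAs are transcribed from the maternal chromosome and are known in muscle stem cells and developing muscle. Of 94 members tested, 43 were called higher and none lower. The called members made up 40.6% of all higher calls, whereas the 94 members made up 8.51% of the miRNAs tested. Their median log2 fold change was 1.61, and that of all 839 tested miRNAs with a fold was -0.10. Many members were scarce on day 1 and passed 100 reads only through their day 3 level, so no share over the members above that level is drawn on here. Of the 87 members with a fold, 78 had a log2 fold change above 0 and 9 below 0, none of the 9 called. Among the latter, those with at least 100 reads were miR-434-3p (-0.58), miR-136-5p (-0.49) and miR-154-5p (-0.16). The summed level of the domain went from 3772 to 9889 CPM, a 2.62-fold change.

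**Figure D3:**
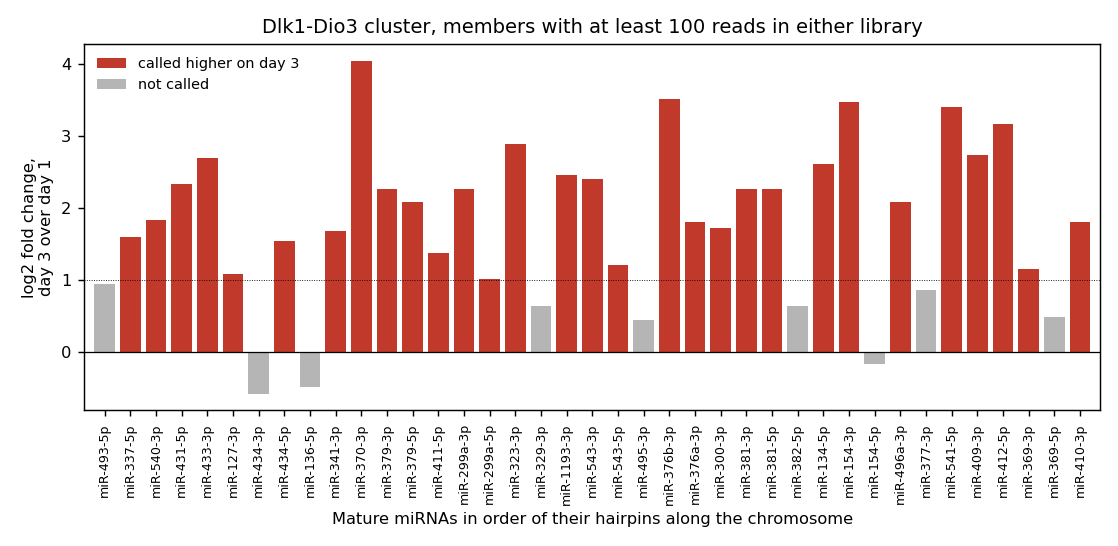
log2 fold change of CPM, day 3 over day 1, of 39 Dlk1-Dio3 miRNAs with at least 100 reads in either library and a placed hairpin, in order along the chromosome. Red bars were called higher, gray bars were not called, and the dotted line marks a fold of 2. Members scarce on day 1 enter the plot through their day 3 reads, and 3 gray bars lie below 0.

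Higher calls came from each of the 4 blocks into which placed hairpins were grouped. The blocks do not hold every higher call of the domain. Before them lie, among others, miR-337-5p (1.60), miR-540-3p (1.84) and miR-493-3p (4 to 57 reads, 3.22), called higher. Their other arms, miR-493-5p (0.94), miR-540-5p (0.39) and miR-337-3p (-0.39), were not called. In the interval of Rtl1, a retrotransposon-derived gene on the opposite strand (chr12:109590447-109595397), 4 of 11 mature miRNAs were called higher, against 9.60% of all miRNAs, with a median log2 fold change of 0.98. The block in the noncoding gene Rian (chr12:109611500-109618336) had 3 of 5 higher with a median of 2.79, and the block between Rian and Mirg (chr12:109709060-109728202) had 19 of 36 with a median of 1.72. In Mirg (chr12:109733771-109747960), 11 of 24 were higher with a median of 1.89. The blocks thus differed more in the size of the median than in direction, and none held a lower call.

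The 3 most abundant members of the domain on day 3 rose by 2.11-fold to 4.25-fold. miR-127-3p, which is antisense to Rtl1, went from 1198 to 2531 CPM (2.11-fold), miR-411-5p from 775.1 to 1997 CPM (2.58-fold) and miR-379-5p from 482.6 to 2051 CPM (4.25-fold). Several less abundant members rose more steeply. miR-541-5p went from 237 to 3825 reads (10.6-fold), miR-154-3p from 39 to 664 reads (11.2-fold), miR-376b-3p from 19 to 332 reads (11.5-fold) and miR-370-3p from 4 to 101 reads (16.6-fold). miR-770-3p, with 0 reads on day 1 and 17 on day 3, was the only miRNA called higher with a library at 0.

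**Figure D4:**
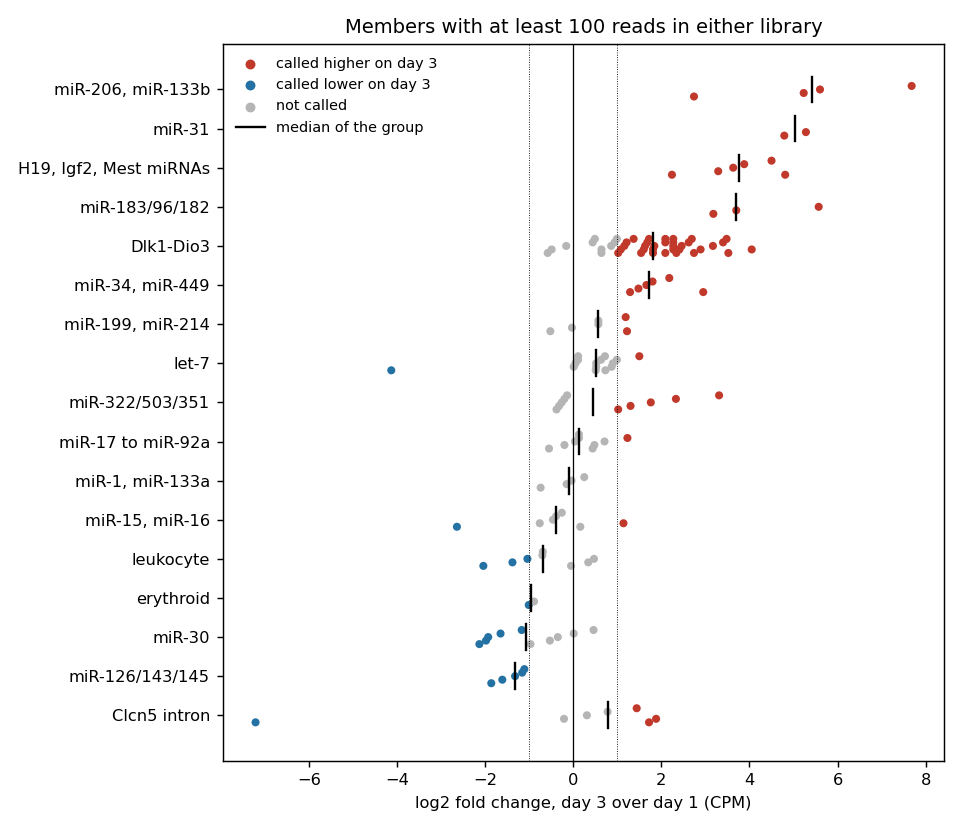
log2 fold change of CPM, day 3 over day 1, of members with at least 100 reads in either library, by miRNA group. Each point is 1 miRNA, red where called higher, blue where called lower and gray where not called, the black tick is the median of the group, and the dotted lines mark a fold of 2. Members scarce on day 1 enter the plot through their day 3 reads. The 4 points of miR-206 and miR-133b lie between 2.74 and 7.68, while the points of miR-126, miR-143 and miR-145 all lie below -1.

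Part of the leukocyte miRNAs fell, led by miR-223. Of 11 members tested, 3 (miR-223-3p, miR-150-5p and miR-142a-3p) were called lower and none higher, against 7.16% of all miRNAs called lower, and the summed level went from 19660 to 7602 CPM. miR-223-3p, which restrains neutrophil and macrophage activation, fell from 50183 to 18568 reads, or from 7815 to 1896 CPM (4.12-fold, log2 fold change -2.04, -2.07 to -2.02). miR-223-5p, from the other arm, stood at 110.3 and 67.9 CPM and was not called (-0.70). The 2 arms of this X-linked hairpin (chrX:96242817-96242926, capitals mark the arms) therefore differed in the size of their change.
Mir223: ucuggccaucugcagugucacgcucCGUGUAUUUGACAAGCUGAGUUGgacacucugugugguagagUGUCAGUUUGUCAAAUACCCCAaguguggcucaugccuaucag

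miR-150-5p, abundant in mature lymphocytes, fell from 8307 to 3197 CPM (-1.38), and miR-142a-3p, made by all blood cell lineages, from 1684 to 816.2 CPM (-1.04). Neither call held when folds were taken from the expression values, which gave -0.93 and -0.71. The call of miR-142a-3p was also lost under other scalings, such as totals without miR-206-3p (-0.77), whereas that of miR-150-5p was kept there. miR-342-3p, also of lymphocytes and other leukocytes, had 580.7 and 802.0 CPM (0.47) and was not called. Of 14 miRNAs listed as feedback regulators of inflammation, 3 were called lower and none higher, against 7.16% and 9.60% of all miRNAs. The 3 were miR-212-5p (-2.12), miR-212-3p (-1.43) and miR-132-3p (-1.84). miR-155-5p, induced in activated macrophages, was near equal at 225.0 and 216.6 CPM, and miR-146a-5p, a feedback inhibitor of NF-kB signaling, stood at 2000 and 2524 CPM (0.34), while miR-146b-5p had 418.2 and 229.3 CPM (-0.87). None of these last 3 was called. In contrast miR-511-3p, which lies in an intron of Mrc1, the gene of the macrophage mannose receptor, rose from 201 to 1151 reads (3.75-fold, log2 fold change 1.91, 1.69 to 2.12). It was picked out after its value was seen. Its level on day 3 was 117.5 CPM, far below that of miR-223-3p.

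miR-21a, a miRNA of injury, inflammation and fibrosis, was the only hairpin of the 142 compared whose arms were called in opposite directions. miR-21a-5p rose from 122768 to 514881 reads (19120 to 52565 CPM, 2.75-fold) and moved from rank 12 to rank 5. miR-21a-3p fell from 2160 to 979 reads (336.4 to 99.9 CPM, 3.37-fold). From the expression values the log2 fold change of miR-21a-5p was 0.60 in place of 1.46, which ended its call.
Mir21a: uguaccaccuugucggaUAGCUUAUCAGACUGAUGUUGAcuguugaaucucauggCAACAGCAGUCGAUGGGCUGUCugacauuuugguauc

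Vascular miRNAs fell, and miR-126a-3p and miR-143-3p gave up the largest parts of the lost share. miR-126a is made by endothelial cells from the Egfl7 gene, and miR-143 and miR-145a by smooth muscle cells and pericytes. Of 8 members 6 were called lower and none higher, against 7.16% of all miRNAs, and their summed level went from 196783 to 84119 CPM. miR-126a-3p, ranked 2 on day 1, fell from 127912 to 57349 CPM (2.23-fold) and miR-126a-5p from 5011 to 1383 CPM (3.62-fold). miR-143-3p fell from 62189 to 24829 CPM (2.50-fold) and miR-145a-5p from 1571 to 513.5 CPM (3.06-fold). All 4 lay lower by more than a fold of 2. Since miR-206-3p enters the totals, the calls were also made without it, and then 4 of the 8 were called lower and the log2 fold change of miR-126a-3p was -0.88 in place of -1.16. From the expression values miR-126a-3p had -0.45 and miR-143-3p -0.59, and 3 of the 8 were called.

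miR-451a, the main miRNA of red blood cells, had 25178 and 12479 CPM, a log2 fold change of -1.01 at the edge of the fold threshold that was lost under every other scaling (-0.99 to -0.54). Its cluster partner miR-144-3p had 148.4 and 80.3 CPM and was not called (-0.89). The 5p arm, miR-144-5p, was called lower (58 to 36 reads, -1.30). That call was lost with totals without miR-206-3p (-1.02) and with the expression values (-0.95). Of these 3 miRNAs 2 were thus called lower and none higher, against 7.16% and 9.60% of all miRNAs. miR-378a-3p, from an intron of the metabolic regulator Ppargc1b, fell from 57213 to 22260 CPM (2.57-fold), and miR-378b from 557.4 to 250.4 CPM. Of the 5 miR-378 members tested these 2 were called lower and none higher, against 7.16% and 9.60% of all miRNAs. With totals without miR-206-3p 1 was called lower, and with the expression values 0 were. The other arm, miR-378a-5p, was not called and had 464.6 and 613.8 CPM (0.40). The fall of miR-378a-3p was -1.36 on the log2 scale from reads and -0.62 from expression values.

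Of the stromal miRNAs miR-199 and miR-214, known from fibroblasts, 2 of 6 members were called higher and none lower, against 25.7% and 15.3% of all miRNAs with at least 100 reads, a level that all 6 reached. The hairpins Mir199a-2 and Mir214 lie in the noncoding gene Dnm3os, and that of miR-199b lies elsewhere. miR-199a-5p rose from 1295 to 2963 CPM (2.29-fold) and miR-214-5p from 52.5 to 122.5 CPM (2.33-fold). miR-199a-3p and miR-199b-3p share a sequence and were listed with the same 11755 and 26699 reads, a log2 fold change of 0.57. miR-214-3p was near equal at 566.3 and 555.6 CPM. miR-199b-5p had 50.9 and 35.5 CPM and was not called (-0.52).

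The miR-183, miR-96 and miR-182 cluster, known from sensory organs and also expressed in activated lymphocytes, was among the steepest rises of the comparison, and it was grouped after its values were seen. Of its 5 members tested, 3 were called higher, against 9.60% of all miRNAs, and miR-183-3p and miR-182-3p, with at most 8 reads, were not called. miR-183-5p rose from 29 to 2103 reads (4.52 to 214.7 CPM, 47.5-fold), miR-182-5p from 117 to 2320 reads (13.0-fold) and miR-96-5p from 28 to 387 reads (9.06-fold). Their hairpins lie together at chr6:30165918-30169737 on the minus strand. Of the 13 other epithelial miRNAs tested, none was called higher and 2 were called lower, against 9.60% and 7.16% of all miRNAs, so these few calls are not read as a result about them. miR-200c-3p fell from 158.1 to 72.1 CPM, while miR-203-3p of skin had 27.1 and 32.6 CPM (0.27).

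The miR-34 family, which p53 induces, and miR-449a, which shares its seed and is made in multiciliated cells from an intron of Cdc20b, rose in most members. Of 7 tested, 6 were called higher, against 9.60% of all miRNAs and 25.7% of those with at least 100 reads in either library. miR-34a-3p was not called (0.49). miR-449a was added to this group after its value was seen. miR-34a-5p was the most abundant and rose from 5155 to 14370 CPM (2.79-fold). miR-449a-5p rose from 77 to 909 reads (7.74-fold), miR-34b-3p from 177 to 1226 reads (4.54-fold), and miR-34c-5p from 114 to 425 reads (2.44-fold). miR-34a-5p, miR-34b-5p and miR-449a-5p, whose sequences with the seed GGCAGUG are printed above, went from 5180 to 14508 CPM in sum, nearly all of it miR-34a-5p. miR-34b and miR-34c share a hairpin cluster on chromosome 9, and miR-34a has its own locus on chromosome 4.

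let-7 and miR-30 are large families abundant in differentiated cells. The 22 let-7 and miR-98 members held 113250 CPM on day 1 and 172216 CPM on day 3, with 1 member called higher and 1 lower, both of them minor arms (let-7c-1-3p at 1.50 and let-7i-3p at -4.13), against 9.60% and 7.16% of all miRNAs. None of the abundant 5p members passed the fold threshold. All 9 with the seed GAGGUAG and at least 100 reads lay between 0.05 and 0.99 on the log2 scale. let-7f-5p was at 15658 and 29141 CPM (0.90) and let-7g-5p at 9652 and 10023 CPM (0.05). With totals without miR-206-3p, let-7f-5p reached 1.18, and 6 members of the family were called higher in place of 1. Reads of the near-identical let-7 members may have been split between them in the counting.

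Of 11 miR-30 members tested, 5 were called lower and none higher, against 7.16% and 9.60% of all miRNAs. Among miRNAs with at least 100 reads in either library, a level that 10 of the 11 reached, those shares were 15.3% and 25.7%. The family went from 13067 to 4338 CPM in sum. miR-30d-5p fell from 6467 to 1635 CPM (3.96-fold), miR-30a-5p from 1744 to 458.6 CPM (3.80-fold) and miR-30c-5p from 897.8 to 204.7 CPM (4.39-fold). miR-30b-5p had 3334 and 1702 CPM and missed the call at -0.97. Of the 3p arms, miR-30a-3p was also called lower (-1.17), though with totals without miR-206-3p or with the expression values 4 of the 11 members were called in place of 5, whereas miR-30d-3p (-0.53), miR-30e-3p (-0.35), miR-30c-2-3p (0.01) and miR-30c-1-3p (0.46) were not called.

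A few miRNAs fell apart from their neighbors. miR-532-5p dropped from 23696 to 244 reads (3690 to 24.9 CPM, 148.1-fold, log2 fold change -7.21), while its own other arm miR-532-3p had 435 and 823 reads and was not called (0.31). Other miRNAs from the same introns of the chloride transporter gene Clcn5 rose, namely miR-501-3p from 1925 to 9706 reads (3.31-fold), miR-362-5p from 205 to 1150 reads (3.68-fold) and miR-188-5p from 204 to 844 reads (2.71-fold). Of the 10 cluster members tested, 3 were thus called higher and 1 lower, against 9.60% and 7.16% of all miRNAs. miR-6538, whose hairpin lies in an intron of Rnf144a (chr12:26414901-26415010), fell from 9724 to 70 reads (211.9-fold, log2 fold change -7.73). Both were among the 3 lower calls that remained when a coefficient of variation of 0.4 between libraries was assumed in edgeR's exact test.

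The other steep falls were of miRNAs with different known roles. miR-135a-5p went from 2505 to 372 reads (10.3-fold), miR-204-5p, of retina and other epithelia, from 5885 to 1971 reads (4.55-fold), and miR-125b-1-3p from 719 to 180 reads (6.09-fold). miR-129b-3p, with fewer reads, went from 314 to 12 (39.9-fold). miR-326-3p (-1.99) and miR-339-5p (-1.94) fell by close to a fold of 4. All of these were named because they were called lower, so intervals of the log2 fold change wholly below 0 follow from that choice.

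Among steep rises outside the groups above, miR-744-5p, from an intron of the kinase gene Map2k4, went from 20 to 1163 reads (38.1-fold, log2 fold change 5.25, 4.61 to 5.89). miR-7689-3p went from 87 to 1857 reads (14.0-fold). From the Gnas region on chromosome 2, which is also imprinted, miR-298-5p went from 6 to 200 reads, miR-298-3p from 1 to 56 reads (95% interval of the log2 fold change 2.35 to 8.05) and miR-296-3p from 11 to 248 reads, whereas miR-296-5p, the most abundant member there, had 404 and 658 reads and was not called (0.09). A level of 3 reads corresponds to 0.467 CPM on day 1 and 0.306 CPM on day 3. No miRNA with at least 50 reads in 1 library was at 0 in the other.

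The balance between the arms of a hairpin needs no scaling between libraries, because both arms are counted in the same library. It was compared in 142 hairpins with at least 100 reads over both arms in each library. The dominant arm was the same on both days in 136 of them. The intervals of the 5p share did not overlap in 73, but the odds of the 5p arm changed by less than 2 times in 83 and by at least 4 times in 17. Both arms were called higher in 13 hairpins, both lower in 9, and 1 arm only in 60.

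**Figure D5:**
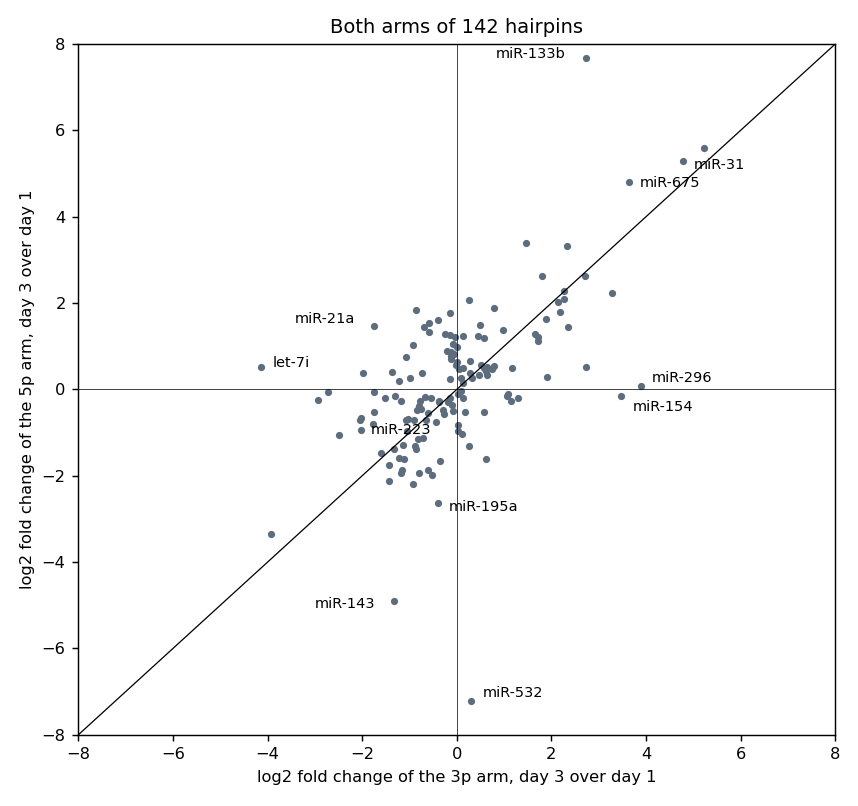
log2 fold change of CPM, day 3 over day 1, of the 3p arm (x axis) and the 5p arm (y axis) of 142 hairpins, 1 point each. Points on the diagonal changed alike on both arms. miR-31 lies near the diagonal, while miR-532, miR-133b and let-7i lie far from it.

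By odds, the 5p share rose most in miR-133b, from 1.74% (1.20 to 2.50) on day 1 to 35.3% (34.7 to 35.9) on day 3, so that both arms rose but the minor arm rose much more. In let-7i the 3p arm went from 0.443% to 0.0178% of the reads, as let-7i-3p fell from 572 to 50 reads while let-7i-5p had 20023 and 28694 CPM. The 5p share of miR-21a was 98.3% and 99.8%, that of miR-25 was 0.281% and 1.83%, and that of miR-1843b was 96.2% and 99.4%. In miR-133b and miR-25 the gain was one of the minor arm, and in the other 3 the dominant arm gained.
Mirlet7i: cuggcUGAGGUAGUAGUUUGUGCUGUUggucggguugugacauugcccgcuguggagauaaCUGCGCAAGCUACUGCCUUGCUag
By odds, the 5p share fell most in miR-532, from 98.2% (98.0 to 98.4) to 22.9% (20.4 to 25.5), in miR-296 from 97.3% to 72.6% and in miR-154 from 95.1% to 60.8%. In miR-409 it went from 3.25% to 0.718%, and in miR-143 miR-143-5p went from 39 to 2 reads beside 399322 and 243199 reads of miR-143-3p. miR-206 and miR-31 kept their balance within the intervals, with miR-31 at 81.9% (75.1 to 87.2) and 86.4% (85.6 to 87.1).

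The arm with more reads differed between the days in miR-532, miR-30e, miR-335, miR-199a, miR-574 and miR-455. On day 1 the interval of the 5p share included equal arms in miR-335 (46.5% to 56.0%) and miR-455 (34.4% to 52.5%), so which arm led could not be told there. In miR-30e the 5p share was 68.2% and then 46.6%, in miR-335 51.3% and then 33.7%, and in miR-199a 41.4% and then 52.1%. Apart from miR-532, these hairpins had a 5p share between 41.4% and 68.2% on day 1, that is, neither arm was far in excess. miR-199a-3p shares its reads with miR-199b-3p, which bears on the arm share of miR-199a.

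miRNAs with the same seed are expected to share targets and were grouped. A RefSeq mature sequence was matched for 953 of the listed miRNAs and for 289 of the 339 with at least 100 reads, and 32 seed families had at least 2 such members. None had members called in opposite directions. Members scarce on day 1 are among them through their day 3 reads, miR-34b-5p (82 to 436 reads) and miR-449a-5p (77 to 909 reads) included, and of all 339 miRNAs at that level 25.7% were called higher and 15.3% lower, so the counts are a description. In 2 families at least 2 members were called higher, GGCAGUG (matched for miR-34a-5p, miR-34b-5p and miR-449a-5p) and AUCACUA (miR-34b-3p and miR-34c-3p, 56.1 to 215.1 CPM). In another 2 at least 2 members were called lower, GUAAACA (2885 to 740.4 CPM over its matched members miR-30a-5p, miR-30c-5p, miR-30e-5p and miR-384-5p, without miR-30b-5p and miR-30d-5p) and CAGUGCA (miR-148a-3p and miR-152-3p beside miR-148b-3p, 270.7 to 115.4 CPM). miR-148a-3p was not called with totals without miR-206-3p or with the expression values.

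Summed levels cover only the miRNAs with a matched sequence, which do not include miR-1a-3p, miR-143-3p or miR-378a-3p, so they are not totals of a family. Apart from miR-206-3p itself, the largest gains among the matched seeds were of GAGGUAG (let-7, 112242 to 170902 CPM), followed by AGCUUAU (miR-21a-5p) and the miR-34 seed GGCAGUG. The largest loss was that of CGUACCG (miR-126a-3p), and next came AGCUGCC (miR-22-3p, 129422 to 100095 CPM, not called), UCAAGUA (miR-26a-5p and miR-26b-5p, 61907 to 42726 CPM) and AGCAGCA (51603 to 32806 CPM). Families could also hold unequal changes. In CCCUGAG, miR-351-5p rose with a log2 fold change of 3.31 while miR-125b-5p had -0.43 and miR-125a-5p 0.49, so the summed level was 2120 and 2521 CPM. In AGCAGCA the members ranged from -2.64 (miR-195a-5p) to 0.16 (miR-497a-5p).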

How the data were processed

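BGI sequenced small RNA of TA muscle on its BGISEQ platform, and the submitters' processing notes name HISAT, Bowtie2 and GRCm38.p6. The authors deposited for each of 1138 miRNAs a read count, without normalization, and an expression value. The deposited expression value was handled as a score, since it holds whole numbers at or below the read count and its making is not given in the sources used here. The day 1 and day 3 libraries, 1 per day with 4 samples pooled in each, were grouped from their labels. The study's thresholds were applied with Fisher's exact test. Where a library had 0 reads, the fold is a bound set at 3 reads, and the miRNA counted as past the fold when the test called it.

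Members, lists and tests were chosen with earlier results of these data known, and some groups were formed after their values were seen, as stated beside them. Named miRNAs were the 10 most abundant per library, the 10 largest gains and losses of CPM, the 12 largest folds each way among calls with at least 500 reads, both arms of miR-223, members of the lists, and the 5 largest changes in the odds of the 5p arm each way. Alternatives were TMM and median-of-ratios factors, totals without miR-206-3p or without the top 10, the expression values scaled to their total (a form chosen after they were seen), a pseudocount of 1 CPM, minimum reads, thinning of day 3 reads, other thresholds, and the exact test of edgeR at a preset coefficient of variation. The procedure was tested on simulated reads with counting error alone, which leaves out any spread between pools of mice. Factors came from DESeq2 1.42.0 and edgeR 4.0.16 under R 4.3.3. Tests used scipy 1.17.1, with pandas 2.3.3, numpy 2.4.6, Python 3.11.15 and, for plots, matplotlib 3.10.9. Hosts of hairpins came from the GENCODE annotation of GRCm38.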

Additional observations from a re-analysis of the deposited data

How the results depend on the processing

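The count of higher calls was 106 and that of lower calls 79. With a fold of 4 they were 62 and 29, with an assumed coefficient of variation of 0.2 they were 60 and 26, and with 0.4 they were 9 and 3. With at least 100 reads in 1 library, lower calls numbered 52, and 52 also with a fold of 2 alone and no test at that minimum, an alternative added after the data were seen. The other 20 of 28 recomputed counts stayed within 1.5 times. The 9 higher calls at a coefficient of variation of 0.4 were miR-128-2-5p, miR-133b-5p, miR-183-5p, miR-206-3p, miR-206-5p, miR-31-3p, miR-31-5p, miR-675-5p and miR-744-5p, and the 3 lower were miR-129b-3p, miR-532-5p and miR-6538. Under the other 4 scalings, the expression values and the pseudocount, 103 of the 106 higher but only 50 of the 79 lower calls held throughout. Each scaling raised every log2 fold change by the same amount, from 0.02 to 0.28. It could thus take lower calls below the fold of 2, but not higher calls. No called direction reversed, and only the expression values could have reversed one. Totals without miR-206-3p ended 24 lower calls, as did the expression values. Of the miRNAs in the text, miR-21a-5p, miR-503-5p, miR-10a-5p, miR-126a-3p, miR-139-3p, miR-142a-3p, miR-143-3p, miR-144-5p, miR-148a-3p, miR-150-5p, miR-200c-3p, miR-26b-5p, miR-30a-3p, miR-378a-3p, miR-378b, miR-451a and miR-499-5p lost their call under at least 1. Of 17 values of arm shares under other settings, 15 stayed within their interval and 2 did not. Some of the 17 only raised the minimum of reads, which leaves a share unchanged, so those could not move. The count of 15 is therefore no measure of how stable the shares were. Summed levels of seeds stayed within their interval in only 7 of 60 recomputed values. Of 342 list medians, 163 moved by more than 0.1 on the log2 scale. No paired analysis was possible because there was 1 library per day. The spread between mice is unknown, and counts under 3 reads carry wide counting intervals.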

Other observations

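Several called miRNAs belong to none of the groups described above and were picked out after their values were seen. Among those called higher, miR-149-5p went from 5180 to 21632 reads (log2 fold change 1.45) and miR-652-3p from 7381 to 23816 reads (1.08). miR-1983 went from 245 to 1979 reads (2.40), and miR-615-3p, which lies in the Hoxc gene cluster, from 250 to 1677 reads (2.14). These gains ran from abundant to scarce miRNAs. miR-128-2-5p had 1 read on day 1 and 119 on day 3.

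Among those called lower, miR-192-5p went from 3686 to 1700 reads (-1.73) and miR-194-5p from 1389 to 634 reads (-1.74), a pair known from gut, kidney and liver epithelium that is encoded in common clusters. miR-10a-5p, of the Hoxb gene cluster, went from 53572 to 31282 reads (-1.39), and its relative miR-10b-5p was not called at 5014 and 2622 CPM (-0.94). miR-139-5p (18000 to 9148 reads, -1.59) and miR-139-3p (-1.23) fell on both arms, as did miR-338-3p (-1.61) and miR-338-5p (-1.47). The miRNAs of the Sfmbt2 intron, a large repeat cluster of rodents, had 2 of 59 tested called lower and none higher, against 7.16% and 9.60% of all miRNAs.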
